A study of Mus musculus with 16 samples.

Results

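Respiratory complex I is the first enzyme of the mitochondrial electron transport chain. The genes described here are the entries of an oocyte RNA-seq table whose gene name starts with Nduf, the prefix for nuclear-encoded complex I genes. The rule found 47 entries with 45 gene names, of 28618 entries with 27987 names in the whole table. By their known roles, 36 of the names are subunits of the enzyme and 7 are assembly factors (Ndufaf). The last 2, Ndufa4 and Ndufa4l2, carry the prefix although Ndufa4 is now counted as a subunit of complex IV and Ndufa4l2 is its relative. Ndufb1 and Ndufaf8 are names that the table does not use.

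Complex I oxidises NADH, passes the electrons along iron-sulfur clusters to ubiquinone, and pumps protons out of the matrix. Its core subunits do this chemistry and are split between the nuclear genome and the mitochondrial genome, while accessory subunits surround the core in a matrix arm and a membrane arm. Assembly factors bind the intermediates, insert or modify parts, and leave the finished enzyme. Oocytes inherit their mitochondria maternally and depend on oxidative metabolism during maturation, and fully grown oocytes transcribe almost no RNA, so that transcript levels after that point depend on storage, decay and poly(A) tail length.

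The libraries came from oocytes of mice in which the α4 subunit of the 20S proteasome, Psma7, was deleted in the oocyte, and from wildtype mice (WT). In Psma7 cKO females (Zp3-Cre; Psma7 flox/flox, on a C57BL/6 background), the Zp3 promoter drives CRE in growing oocytes, so that the surrounding follicular cells keep the gene. All females were 3 to 4 weeks old and had received 5 IU of PMSG, a gonadotropin that makes follicles grow. Germinal vesicle (GV) oocytes, arrested before the first meiotic division, were collected after 44 h. For metaphase II (MII) eggs, hCG was given at 44 h to start maturation and ovulation, eggs were taken from the oviduct 14 to 16 h later, and cumulus cells were digested away with 0.3% hyaluronidase. Each of the 4 groups had 4 libraries, each from a pool of 5 cells by the labels and of more by the study's methods. According to the study, part of the ovulated Psma7 cKO oocytes do not complete the first division, so the Psma7 cKO egg pools may mix stages. The labels do not tie a pool to an animal, and p-values then measure only the spread between pools. The cDNA was primed with oligo-dT and amplified with the Smart-seq2 protocol.

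Values were FPKM, fragments per kilobase of transcript scaled to the mapped fragments of the library. FPKM is a share of each library, so less RNA of a gene and more RNA of all others cannot be told apart, and with oligo-dT priming neither can a loss of RNA and a shorter poly(A) tail. Judged from steps between the smallest values, libraries held from 10.6 to 15.7 M fragments, with a median of 13.8 M. At that depth and at the median length of the Nduf transcripts, 813 nt, 1 FPKM corresponds to about 11.2 fragments. Fold changes are therefore given as log2 of FPKM with values below 1 set to 1, which understates the change of entries near that floor. Differences between groups were tested with limma over all entries with a mean of at least 1 FPKM, and an entry was called when its Benjamini-Hochberg adjusted p was under 0.05.

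The deleted gene followed the labels. Psma7 stood at 154, 142, 201 and 164 FPKM in the WT GV libraries and at 14.5, 14.7, 11.1 and 18.0 FPKM in the Psma7 cKO GV libraries. In eggs it stood at 118, 116, 97.7 and 172 FPKM in WT and at 13.6, 50.3, 35.0 and 59.9 FPKM in Psma7 cKO. The genotypes did not overlap at either stage, and Psma7 cKO eggs spread more widely than Psma7 cKO GV oocytes. The log2 fold change was -3.51 in GV oocytes (limma, adjusted p = 9.0e-07) and -1.83 in eggs (adjusted p = 0.0359). In eggs the call was lost when any of WT replicates 1 to 4 or Psma7 cKO replicate 3 was left out, although the log2 fold change stayed between -2.10 and -1.38 over all egg libraries left out in turn. Within Psma7 cKO, Psma7 was higher in eggs than in GV oocytes, with a log2 fold change of 1.27 (limma, adjusted p = 0.0188). That call was lost without Psma7 cKO GV replicate 3, at 1.14, or egg replicate 4, at 1.01, and the adjusted p ran from 0.000188 to 0.0552 over all alternatives. In WT it was lower in eggs, at -0.41 (limma, adjusted p = 0.0407), a call lost without WT GV replicate 1, 3 or 4 or egg replicate 1, 2 or 3, at -0.44 to -0.30, with an adjusted p of 0.00212 to 0.364 over all alternatives. Rescaling the libraries by the median ratio moved the WT value to -0.18, and the call was lost (limma adjusted p = 0.364). With no filter, moderation without a trend, a replicate block or a joint fit of all 16 libraries the call was lost as well. The difference between these courses was not called (interaction 1.68, limma adjusted p = 0.0847).

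Markers of the cell type were present. The 12 oocyte genes checked summed to 14892 ± 144 FPKM in WT GV oocytes, 14997 ± 451 in Psma7 cKO GV oocytes, 10173 ± 1025 in eggs of WT and 11589 ± 793 in those of Psma7 cKO (mean ± SD, n = 4), and the most abundant was the zona pellucida gene Zp3 in each GV library and Oosp1, which encodes a secreted oocyte protein, in each egg library. The 14 cumulus and granulosa genes checked summed to 17.8 to 19.7 FPKM in WT GV libraries, 19.3 to 23.2 in Psma7 cKO GV libraries, 20.0 to 24.1 in WT egg libraries and 22.8 to 23.6 in Psma7 cKO egg libraries. The largest part was Cyp19a1, the aromatase gene, at 8.10 ± 1.43, 9.59 ± 0.472, 13.5 ± 0.658 and 13.7 ± 1.32 FPKM in the same order. The defining cumulus genes Ptx3, Tnfaip6 and Has2 were below 0.1 FPKM in every library, and the granulosa genes Foxl2 and Amh below 0.05. Other genes of the list were not as low. Besides Cyp19a1, Kitl and Nr5a2 had a mean of at least 1 FPKM in every comparison, and Cyp11a1 had it between genotypes in GV oocytes. Of 3 blood and immune genes, Cd68 reached 3.83 FPKM, Ptprc stayed below 0.05, and Hba-a1 was listed at 0 in all libraries but Psma7 cKO egg replicate 4. Most of these genes were too low to test. Of the 14 cumulus and granulosa genes, 4 were tested between genotypes in GV oocytes and 3 in eggs, and of the blood and immune genes Cd68 at both stages. Among those tested between genotypes, limma called 0, and 0 had an unadjusted p under 0.05. In maturation, Cyp19a1 was called higher in WT, at 0.76 (limma, adjusted p = 0.000372), and in Psma7 cKO, at 0.51 (adjusted p = 0.00160). In WT all 3 tested genes of that list were called, 2 higher and 1 lower. Kitl was the other higher one, at 0.59 (limma, adjusted p = 0.00769), and Nr5a2 the lower one, at -0.61 (adjusted p = 0.000644). In Psma7 cKO, 4 genes of the list were tested, with 1 called higher and 1 lower. The lower one was Cyp11a1, at -0.97 (limma adjusted p = 0.000308).

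In WT GV oocytes, Nduf transcripts made up 0.470 ± 0.0573% of summed FPKM, and in Psma7 cKO GV oocytes 0.468 ± 0.0572%. The 38 subunit entries summed to 1674 ± 254 FPKM in WT GV oocytes, and the 7 assembly factors to 138 ± 14.5 FPKM. The median subunit entry had a mean of 31.4 FPKM and the median assembly factor 8.31 FPKM, a comparison per length of transcript. Levels among subunits were far from equal, although the finished enzyme holds most of them in equal numbers. The lowest among the tested subunits was Ndufa13 in the membrane arm, noticed after its values were seen, at 3.24 ± 0.624 FPKM in WT GV oocytes, and the highest was Ndufb11 at 215 ± 36.7 FPKM.

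Ndufb11, an X-linked membrane-arm subunit, had libraries at 182, 197, 267 and 215 FPKM in WT GV oocytes, and over all 16 libraries only Ndufa4 had a higher mean. After these came Ndufab1, the mitochondrial acyl carrier protein that is also part of complex I, then the membrane-arm subunits Ndufb5 and Ndufc2. The stages differ in this order: in both genotypes Ndufb11, Ndufb5 and Ndufc2 led in GV oocytes, and Ndufa4 and Ndufab1 in eggs. Means over the 16 libraries were 163 FPKM for Ndufa4, 125 for Ndufb11, 102 for Ndufab1, 85.8 for Ndufb5 and 84.3 for Ndufc2. At the low end, Ndufaf1, a factor that helps to build the membrane arm, had a mean of 0.762 FPKM. A second entry under the name Ndufa7 had 0.0211 FPKM and was tested in no comparison, while the first entry of Ndufa7, a matrix-arm subunit, had 4.58 FPKM. Ndufs3 also had 2 entries, at 5.03 ± 1.81 and 35.7 ± 13.9 FPKM in WT GV oocytes, and the table does not say how fragments were divided between them. Many Nduf genes have processed pseudogenes, so values of short members may hold fragments of copies.

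Between the genotypes in GV oocytes, no Nduf entry was called. Of 46 entries tested with limma, 0 were called higher, against 0.0994% of all entries tested, and 0 lower, against 0.0181%. At an unadjusted p under 0.05, 2 were higher and 1 was lower, beside 843 and 339 of all 11062 entries tested. The median log2 fold change of the 46 entries was -0.03, and that of all 11062 entries tested was 0.04. By role, the median was 0.08 for core subunits, -0.11 for matrix-arm accessory subunits, -0.04 for membrane-arm accessory subunits and 0.04 for assembly factors.

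Single entries ranged more widely in GV oocytes. The lowest log2 fold change was that of Ndufa1, an X-linked membrane-arm subunit, at -0.72 (limma, adjusted p = 0.391). Its libraries stood at 2.90, 3.32, 4.70 and 4.50 FPKM in WT and at 1.74, 1.80, 2.07 and 4.23 FPKM in Psma7 cKO, so that a single Psma7 cKO library lay among the WT values. The highest was 0.64 for the more abundant Ndufs3 entry (limma adjusted p = 0.438), followed by 0.59 for Ndufaf1 (adjusted p = 0.408). Ndufaf1 stood at 1.34, 0.641, 0.419 and 1.03 FPKM in WT and at 1.66, 0.963, 2.17 and 1.95 FPKM in Psma7 cKO, a level at which each value rests on few fragments. Summed levels were close, with subunits at 1667 ± 228 FPKM and assembly factors at 140 ± 18.4 FPKM in Psma7 cKO GV oocytes.

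The GV libraries of a genotype differed in their Nduf levels. The subunit sum was 1465, 1501, 2019 and 1713 FPKM in WT GV replicates 1 to 4, and 1644, 1534, 1495 and 1995 FPKM in the Psma7 cKO ones. WT replicate 3 and Psma7 cKO replicate 4 were thus the highest. Set against the mean of the other WT GV libraries, the median Nduf entry differed by 0.42 on the log2 scale in WT replicate 3, while the median of other entries with transcripts of up to 900 nt differed by 0.15 and that of all entries by -0.02. In Psma7 cKO replicate 4, set against all WT GV libraries, the same medians were 0.27, 0.13 and 0.06. Some other lists were highest in the same libraries: complexes II to V summed to 4263 and 4211 FPKM in them, cytosolic ribosomal proteins to 7471 and 7632, and mitochondrial ribosomal proteins to 3721 and 3522. The core subunits alone were not, at 205 FPKM in WT replicate 3 against 230 in WT replicate 4, and at 258 in Psma7 cKO replicate 4 against 269 in Psma7 cKO replicate 3. Assembly factors without the Nduf prefix were highest in replicate 1 of both genotypes, at 281 FPKM in WT and 284 in Psma7 cKO. What made these libraries differ was not tested.

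**Figure D1:**
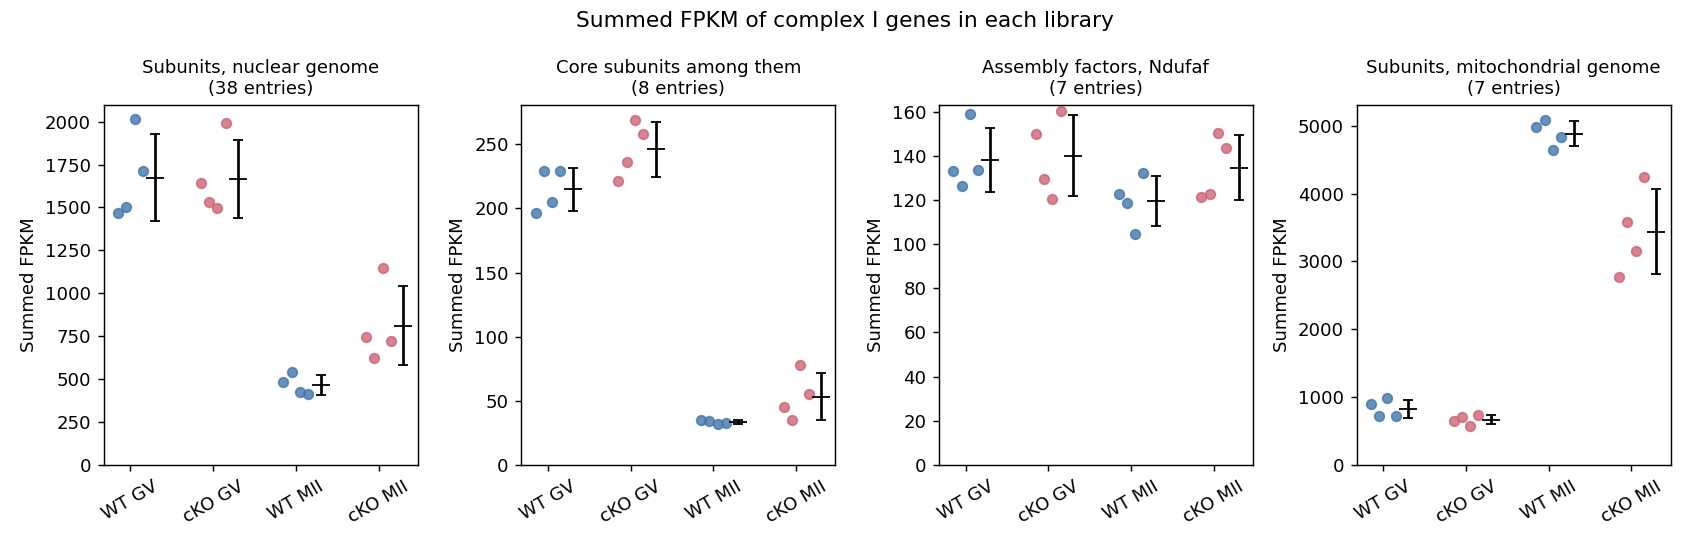
Summed FPKM (vertical axes, linear) of 4 groups of complex I genes in the 16 libraries; each dot is a library, and the black bar and whiskers are the group mean and SD (n = 4). Nuclear-encoded subunits stood near 1670 FPKM at the GV stage in both genotypes and at 465 and 809 FPKM in WT and Psma7 cKO eggs, whereas assembly factors stayed between 105 and 161 FPKM in every library.

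Most subunit transcripts had a lower FPKM in WT eggs than in WT GV oocytes. The 38 subunit entries summed to 1674 FPKM in GV oocytes and to 465 ± 60.7 FPKM in eggs, 27.7% of the GV level. Of 45 Nduf entries tested with limma, 36 were called lower in eggs, against 52.4% of all entries tested, and 3 were called higher, against 26.1%. The median log2 fold change was -1.90 for the Nduf entries and -0.44 for all 10475 entries tested. Rescaling the libraries by the median ratio of expressed entries moved the median of all entries to -0.21 and that of the Nduf entries to -1.67. It also moved the calls over all entries from 2738 higher and 5486 lower to 3481 higher and 4789 lower, and those of Nduf entries to 5 higher and 33 lower.

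The core subunits fell together. All 8 entries of the 7 core genes were called lower in WT eggs, with a median log2 fold change of -3.18, and their sum dropped from 215 ± 16.8 to 33.3 ± 1.47 FPKM. Ndufv1, which binds NADH, stood at 43.4, 50.4, 35.6 and 46.7 FPKM in WT GV libraries and at 2.06, 2.08, 1.69 and 1.56 FPKM in WT egg libraries. Every egg library was far below every GV library. Its log2 fold change was -4.57 (limma, adjusted p = 1.0e-09).

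Other core subunits spread over a wide range. The iron-sulfur subunits Ndufs7 and Ndufs8 had log2 fold changes of -4.15 (limma, adjusted p = 6.6e-09) and -3.46 (adjusted p = 1.5e-08). Ndufv2, another iron-sulfur subunit, had -2.91 (limma adjusted p = 2.9e-08), and Ndufs1, the largest one, had -1.85 (adjusted p = 6.5e-08). Ndufs1 fell least among the genes with a single entry, from 14.9 ± 0.993 to 4.12 ± 0.385 FPKM. The entries of Ndufs3, a core subunit of the matrix arm, had -2.19 for the less abundant (limma adjusted p = 8.6e-06) and -0.89 for the more abundant (adjusted p = 0.00329).

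Accessory subunits ranged from the steepest fall to a rise. In the matrix arm 7 of 9 tested entries were called lower, with a median of -1.24. In the membrane arm 16 of 20 were called lower and 1 higher, with a median of -1.53. Of all entries tested in WT maturation, 52.4% were called lower and 26.1% higher. Ndufb7, a membrane-arm subunit on the intermembrane side, had the lowest log2 fold change of the Nduf entries, -5.71 (limma, adjusted p = 1.9e-08). It stood at 60.6, 56.2, 84.3 and 68.3 FPKM in GV libraries and at 0.607, 1.03, 0.786 and 2.56 FPKM in egg libraries, near the floor. Ndufa9, a matrix-arm subunit next to the membrane, stood at 96.5, 83.1, 98.1 and 87.4 FPKM and then at 2.75, 2.69, 2.54 and 2.98 FPKM. The eggs kept 3.00% of the mean GV level of Ndufa9, and replicates lay close together (log2 fold change -5.06, limma adjusted p = 3.4e-10). Ndufb4, another membrane-arm subunit, had -4.54 (limma adjusted p = 7.0e-08).

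Some accessory subunits moved little or the other way. Ndufab1 stood at 72.4, 68.5, 102 and 86.1 FPKM in WT GV libraries and at 116, 109, 98.0 and 99.4 FPKM in WT egg libraries. GV replicate 3 lay among the eggs, and the log2 fold change was 0.38 (limma, adjusted p = 0.0165). That call was lost without WT GV replicate 1 or 2 or WT egg replicate 1, and over libraries left out in turn the adjusted p ran from 0.00158 to 0.0517. It was also lost with no filter, and over all alternatives tried the log2 fold change of Ndufab1 ran from 0.29 to 0.61. The falls nearest to 0 among those called were those of the membrane-arm subunits Ndufa10, at -0.55 (limma adjusted p = 0.00409), and Ndufa3, at -0.58 (adjusted p = 0.0390). The call of Ndufa3 was lost without any of WT GV replicates 2, 3 and 4 or WT egg replicates 1, 3 and 4, with an adjusted p of 0.00615 to 0.113 over libraries left out in turn, and both calls were lost after rescaling. Entries not called, picked out after their values were seen, included Ndufa5 at -0.33, Ndufa13 at -0.13 (0.10 after rescaling), Ndufb8 at 0.20 and Ndufa1 at 0.41.

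Assembly factors did not share the drop of the subunits in summed level. Their sum was 138 ± 14.5 FPKM in WT GV oocytes and 120 ± 11.5 FPKM in WT eggs, 86.6% of the GV level. Entry by entry the picture differed, since 4 of the 6 tested factors were called lower and 1 higher, with a median of -1.34. Beside them, 52.4% of all entries tested were called lower and 26.1% higher. The sum was kept up by the 2 factors that were most abundant in eggs, Ndufaf4 and Ndufaf2. No test compared subunits with assembly factors, and both lists hold steep falls and entries that did not fall.

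Ndufaf4, which works with Ndufaf3 on the ubiquinone-binding part, stood at 61.7, 59.1, 74.5 and 61.2 FPKM in WT GV libraries and at 63.5, 61.8, 53.1 and 75.4 FPKM in WT egg libraries. The stages overlapped throughout, with a log2 fold change of -0.02 (limma, adjusted p = 0.880) that became 0.21 after rescaling. Its partner Ndufaf3 stood at 8.31, 6.42, 9.59 and 8.92 FPKM and then at 0.758, 0.641, 0.327 and 0.142 FPKM. The pair thus differed in course, as the log2 fold change of Ndufaf3 was -3.04 (limma adjusted p = 1.3e-08) and all 4 egg values lay below the floor. Ndufaf2, a relative of the matrix-arm subunit Ndufa12 that occupies its place during assembly, stood at 14.0, 15.4, 20.3 and 15.0 FPKM and then at 34.2, 29.5, 27.8 and 33.2 FPKM. Every egg library was above every GV library (log2 fold change 0.96, limma adjusted p = 3.9e-05). Ndufa12 itself, looked up after its values were seen, went from 34.8 ± 7.90 to 15.6 ± 3.41 FPKM, with a log2 fold change of -1.16 (limma adjusted p = 0.000239).

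The remaining factors fell or were too low to test. Ndufaf5, which hydroxylates an arginine of NDUFS7, went from 7.38 ± 0.896 to 1.93 ± 0.524 FPKM (log2 fold change -1.97, limma, adjusted p = 2.2e-06). Ndufaf6, needed for the ubiquinone-binding part, had -1.90 (limma adjusted p = 3.1e-06). Ndufaf7, a methyltransferase that modifies a core subunit, stood at 34.5, 33.7, 40.4 and 36.3 FPKM in GV libraries and at 20.9, 22.9, 20.2 and 20.4 FPKM in egg libraries. This smaller fall was called as well, at -0.78 (limma adjusted p = 1.2e-05). Ndufaf1 had a mean under 1 FPKM over the 8 WT libraries and was not tested in WT. The gene 1810043H04Rik, an older name of Ndufaf8, lies outside the rule and was looked at after its values were seen. It had a log2 fold change of -0.90 (limma adjusted p = 0.00209).

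Ndufa4 rose. It stood at 66.5, 81.8, 117 and 93.7 FPKM in WT GV libraries and at 274, 262, 222 and 232 FPKM in WT egg libraries, without overlap (log2 fold change 1.49, limma, adjusted p = 4.9e-06). In eggs it had the highest mean of the Nduf entries, 248 ± 24.7 FPKM. Ndufa4l2 stood at 7.14, 0.943, 1.57 and 4.87 FPKM in GV libraries and was below 0.1 FPKM in all 4 egg libraries. Its log2 fold change was -1.44 (limma adjusted p = 0.0244), and the call was lost without WT GV replicate 1 or 4, the highest GV libraries, with an adjusted p of 2.2e-05 to 0.0946 over all alternatives tried.

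Maturation was tested in the same way in Psma7 cKO. Of 46 Nduf entries tested, 29 were called lower in Psma7 cKO eggs than in Psma7 cKO GV oocytes (limma), against 51% of all entries tested, and 4 were called higher, against 23%. The median log2 fold change was -0.99 for the Nduf entries and -0.42 for all 10748 entries tested. With no library in common, the WT and Psma7 cKO series shared 28 entries called lower, of 36 in WT and 29 in Psma7 cKO, and 3 called higher, of 3 and 4. Of all entries tested, 52.4% were called lower and 26.1% higher in WT, beside 51% and 23% in Psma7 cKO. The share of all entries called in both series is not given here, so this overlap is not read as particular to Nduf entries. After rescaling, 27 of the Nduf entries were called lower and 4 higher in Psma7 cKO maturation. The calls over all entries there moved from 2472 higher and 5482 lower to 3127 higher and 4735 lower.

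Subunits kept 48.5% of their summed GV level in Psma7 cKO eggs, at 809 ± 231 FPKM, and assembly factors 96.0%, at 135 ± 14.7 FPKM. The subunit sum was 746, 622, 1146 and 722 FPKM in the Psma7 cKO egg libraries and 482, 543, 425 and 409 FPKM in the WT ones. Psma7 cKO replicate 3 was far above the others, and without it the Psma7 cKO mean was 697 ± 65.6 FPKM (n = 3). Every Psma7 cKO egg library still lay above every WT egg library and below every GV library.

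Steep falls in Psma7 cKO maturation were again in core and accessory subunits. Ndufb7 had a log2 fold change of -3.79 (limma, adjusted p = 0.000938), Ndufa9 -3.42 (adjusted p = 0.000833), Ndufv1 -3.27 (adjusted p = 1.4e-05) and the membrane-arm subunit Ndufb10 -3.21 (adjusted p = 0.00175). All 8 core entries were called lower, with a median of -2.12. Other core entries had -2.55 for Ndufs8, -2.54 for Ndufs7, -1.71 for Ndufv2, -1.67 for Ndufs1 and -1.64 and -1.46 for the less and the more abundant Ndufs3 entry. In the matrix arm 5 of 9 accessory entries were called lower, and in the membrane arm 10 of 20 were called lower and 2 higher. The shares called lower, 55.6% and 50%, lay near the 51% of all entries tested. For higher calls, the membrane arm had 10%, against 23% of all entries tested.

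Higher calls in Psma7 cKO maturation were Ndufa1, Ndufa4, Ndufaf2 and Ndufab1. Ndufa1 had the highest log2 fold change, 1.50 (limma, adjusted p = 0.000822), with Psma7 cKO eggs at 5.38, 6.98, 6.92 and 6.77 FPKM. Its WT eggs, at 5.40, 6.79, 5.37 and 3.22 FPKM, overlapped them, and its WT maturation was not called. Ndufa4 had 1.41 (limma adjusted p = 1.9e-05), Ndufaf2 1.09 (adjusted p = 0.000464) and Ndufab1 0.80 (adjusted p = 0.000340). The fall nearest to 0 was that of Ndufa10 at -0.36 (limma adjusted p = 0.0261). That call was lost without any of Psma7 cKO GV replicates 2, 3 and 4 or egg replicates 2 and 4, with an adjusted p of 0.00685 to 0.0739 over libraries left out in turn. With no filter, after rescaling or with a replicate block it was lost as well. Over all alternatives the log2 fold change of Ndufa10 reached -0.16 and the limma adjusted p 0.225.

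Assembly factors had a median of -0.70 in Psma7 cKO maturation, and 5 of 7 were called lower, against 51% of all entries tested. Ndufaf3 had -2.49 (limma, adjusted p = 1.2e-05), Ndufaf6 -1.14 (adjusted p = 0.000156), Ndufaf5 -1.06 (adjusted p = 0.000441), Ndufaf1 -0.70 (adjusted p = 0.0159) and Ndufaf7 -0.55 (adjusted p = 0.00110). The value of Ndufaf1 rests on the floor and reached -2.71 with a floor of 0.1 FPKM. Its call was lost with no filter, with an adjusted p of 0.000272 to 0.0556 over the 12 alternatives in which it could be tested. Ndufaf4 was at 0.03 (limma adjusted p = 0.874), as flat as in WT. Ndufa4l2 had -0.81 (limma adjusted p = 0.00106), a call lost in a joint fit of all 16 libraries, with an adjusted p of 0.000373 to 0.0955 over all alternatives tried.

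**Figure D2:**
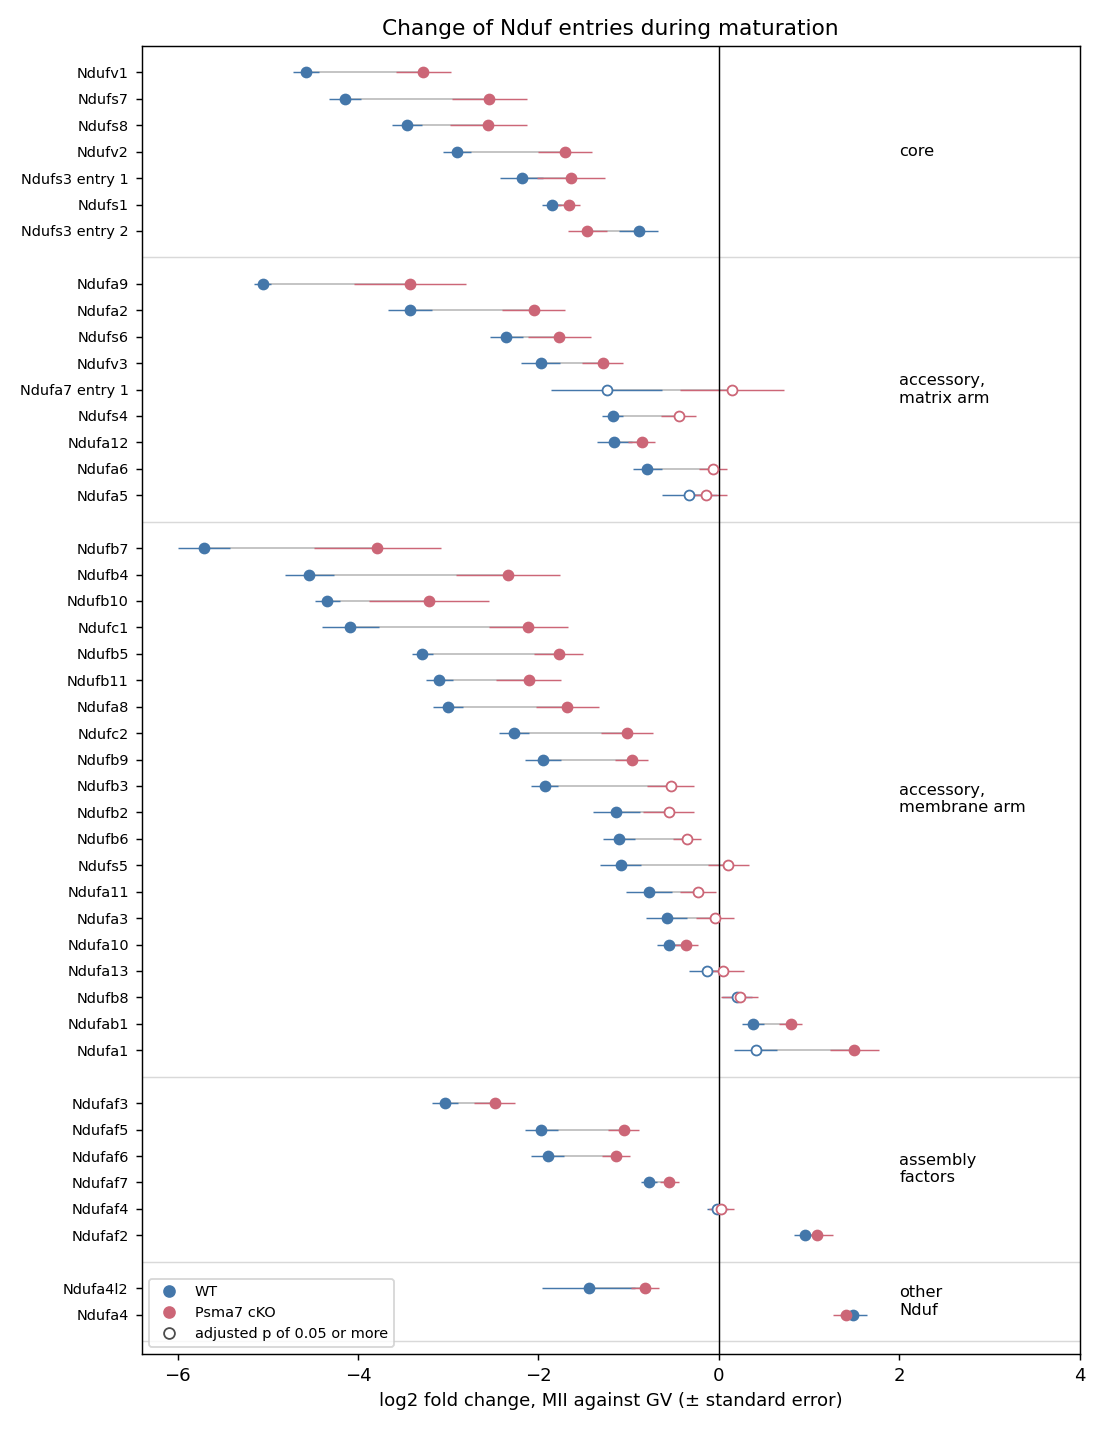
Log2 fold change from GV to MII (horizontal axis, ± standard error) of Nduf entries tested in both genotypes, in WT (blue) and Psma7 cKO (red), grouped by role; filled dots have an adjusted p under 0.05 (limma, n = 4 and 4 libraries in each genotype). The core subunits drawn lie between -4.57 and -0.89 in WT, and most red dots lie to the right of the blue ones.

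Psma7 cKO eggs thus had higher Nduf levels, as shares of a library, than WT eggs. This comparison shares its egg libraries with both maturation comparisons. Nduf entries made up 0.287 ± 0.0533% of summed FPKM in Psma7 cKO eggs and 0.210 ± 0.0190% in WT eggs. Of 43 Nduf entries tested with limma, 13 were called higher in Psma7 cKO eggs, against 6.53% of all entries tested, and 0 lower, against 1.49%. At an unadjusted p under 0.05, 25 were higher and 0 lower, beside 1952 and 835 of all 9492 entries tested. In 22 of the 43, every Psma7 cKO egg library was above every WT egg library, against 13.6% of all entries tested. The median log2 fold change was 0.72 for the Nduf entries and 0.07 for all 9492 entries tested, and 39 of the 43 values were positive. Over all entries, the 620 higher and 141 lower calls became 537 and 223 after rescaling, which left 13 Nduf calls.

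The number of calls in eggs depended strongly on single libraries. It was 0 without WT egg replicate 1, 3 or 4, 4 without WT replicate 2, 1 without Psma7 cKO replicate 1, 20 without Psma7 cKO replicate 2, 6 without Psma7 cKO replicate 3 and 10 without Psma7 cKO replicate 4. Calls over all entries moved along, from 620 higher down to 3 without WT replicate 3 and up to 1024 without Psma7 cKO replicate 2. The median log2 fold change of the Nduf entries stayed between 0.57 and 0.83 in these fits, and 21 to 30 entries were higher at an unadjusted p under 0.05. Calls of single genes in eggs, given here with all libraries, moved with these counts.

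By role, 3 of 8 core entries, with a median of 0.95, were called higher in Psma7 cKO eggs, against 6.53% of all entries tested. Ndufs7 stood at 1.11, 1.69, 1.28 and 0.904 FPKM in WT eggs and at 2.44, 2.44, 9.68 and 5.72 FPKM in Psma7 cKO eggs. Ndufv1 stood at 2.06, 2.08, 1.69 and 1.56 FPKM in WT eggs and at 6.06, 3.02, 8.69 and 3.64 FPKM in Psma7 cKO eggs. For both the genotypes did not overlap and Psma7 cKO replicate 3 was the highest library. The log2 fold change was 1.77 for Ndufs7 (limma, adjusted p = 0.0420) and 1.42 for Ndufv1 (adjusted p = 0.0340). Ndufv2, also called, had 1.27 (limma adjusted p = 0.0407). Not called were, among others, Ndufs8 at 0.92 (limma adjusted p = 0.193), Ndufs1 at 0.22 (adjusted p = 0.310) and the Ndufs3 entries at 0.61 and 0.07.

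The membrane-arm accessory subunits had a median of 0.89, and 7 of 20 were called higher, against 6.53% of all entries tested. Ndufb5 stood at 15.4, 15.8, 13.2 and 15.0 FPKM in WT eggs and at 38.2, 24.0, 68.8 and 41.7 FPKM in Psma7 cKO eggs. Ndufb3 stood at 19.1, 20.8, 18.3 and 21.8 FPKM in WT eggs and at 61.6, 33.7, 75.6 and 42.6 FPKM in Psma7 cKO eggs. WT libraries were tightly grouped for both genes, and the lowest Psma7 cKO library, replicate 2, was still above the highest WT library. The log2 fold change was 1.44 for Ndufb5 (limma, adjusted p = 0.0255) and 1.35 for Ndufb3 (adjusted p = 0.0207). Ndufc1, a small membrane-arm subunit, had the highest value among the calls, 2.12 (limma adjusted p = 0.0442). Its libraries stood at 0.781, 3.64, 1.69 and 1.83 FPKM in WT eggs and at 5.76, 3.59, 18.3 and 10.5 FPKM in Psma7 cKO eggs, and Psma7 cKO replicate 2 fell just below the highest WT library.

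The remaining subunit calls ranged from 0.41 to 1.33. Ndufab1 stood at 156, 132, 145 and 129 FPKM in Psma7 cKO eggs, all above the WT eggs, with a log2 fold change of 0.41 (limma, adjusted p = 0.0319). Ndufa6, a matrix-arm subunit and the single call among 9 accessory entries of that arm, had 0.62 (limma adjusted p = 0.0394). The membrane-arm subunits Ndufb6 and Ndufb9 had 0.72 (limma adjusted p = 0.0245) and 1.01 (adjusted p = 0.0352), and Ndufc2 had 1.33 (adjusted p = 0.0333). By contrast, Ndufb4, with the highest value of the entries tested, 2.22, was not called (limma adjusted p = 0.0552). Its Psma7 cKO eggs stood at 3.30, 3.28, 21.9 and 11.9 FPKM and spread widely.

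The assembly factors had a median of 0.31, and 2 of the 5 tested were called higher, against 6.53% of all entries tested. Ndufaf5 stood at 1.55, 2.70, 1.78 and 1.67 FPKM in WT eggs and at 4.57, 3.91, 4.96 and 3.11 FPKM in Psma7 cKO eggs, without overlap (log2 fold change 1.12, limma, adjusted p = 0.0287). Ndufaf6 stood at 1.73, 1.29, 1.20 and 1.33 FPKM and at 3.06, 2.21, 2.45 and 1.95 FPKM, also without overlap (0.80, limma adjusted p = 0.0368). Both are factors of the ubiquinone-binding part. Ndufaf2 had 0.31 (limma adjusted p = 0.0655), Ndufaf7 0.27 (adjusted p = 0.0933) and Ndufaf4 -0.02 (adjusted p = 0.929). Ndufaf1 and Ndufaf3 were too low in eggs to test, with Ndufaf3 at 0.467 ± 0.283 FPKM in those of WT against 1.23 ± 0.649 FPKM in those of Psma7 cKO. Ndufa4, at 211, 271, 224 and 208 FPKM in Psma7 cKO eggs, had -0.12 (limma adjusted p = 0.470), and Ndufa4l2 was too low to test.

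The interaction asks whether maturation changed an entry differently in the 2 genotypes, and uses all 16 libraries. Of 45 Nduf entries tested, 2 were called with a higher value in Psma7 cKO (limma), against 1.07% of all entries tested, and 0 with a lower one, against 0.188%. At an unadjusted p under 0.05, 22 were higher and 0 lower, beside 1347 and 534 of all 10615 entries tested, and 43 values were positive, beside 5665. The median interaction was 0.76 on the log2 scale for the Nduf entries and 0.03 for all entries tested, with 0.89 for core subunits, 0.73 for the matrix arm, 1.04 for the membrane arm and 0.39 for assembly factors. The calls were Ndufb5, at 1.51 (limma adjusted p = 0.0324), and Ndufb3, at 1.39 (adjusted p = 0.0434). Both held on a narrow margin, since the count became 1 without WT GV replicate 1 or Psma7 cKO egg replicate 3. It became 0 without WT GV replicate 3 or 4, Psma7 cKO GV replicate 1, 2 or 3, or WT egg replicate 1, 3 or 4, and 11 without Psma7 cKO egg replicate 2. Over all entries, 114 higher calls became 605 without that library and 37 without Psma7 cKO GV replicate 3, the lowest of these counts. Ndufb3 was also lost without WT egg replicate 2 or Psma7 cKO egg replicate 1, where another member kept the count at 2. It was called in 4 of the 16 fits with a library left out, and Ndufb5 in 8. For all other members, a different course in the genotypes did not pass the threshold.

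How much of the GV level an egg library kept was then read library by library. For this, entries were taken that had at least 5 FPKM in WT GV oocytes and were called more than 4-fold lower in WT eggs, 18 Nduf entries and 1489 others. Choosing them by their WT values favours low WT eggs, so the levels are a description of single libraries. The median Nduf entry kept 9.19%, 9.27%, 7.33% and 6.02% of the WT GV mean in the WT egg libraries. In the Psma7 cKO egg libraries it kept 15.0%, 10.0%, 49.1% and 23.1% of the Psma7 cKO GV mean. The other entries kept 11.9%, 13.3%, 12.5% and 11.9% in the WT libraries, against 18.2%, 14.8%, 32.1% and 20.4% in the Psma7 cKO libraries. Nduf entries were thus below the others in each WT library and in Psma7 cKO replicates 1 and 2, and above them in Psma7 cKO replicates 3 and 4.

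Transcript length moved with this pattern. The Nduf transcripts are short, 382 to 2413 nt with a median of 813 nt, against a median of 1904 nt for all entries with a mean of at least 1 FPKM and a known length. In Psma7 cKO egg replicate 3, other falling entries of up to 900 nt kept 43.5% and those over 2500 nt kept 24.0%, and in replicate 4 the values were 22.8% and 17.3%. In replicates 1 and 2 the order was the other way, with 17.2% and 20.6% and with 14.1% and 16.2%, as in all WT eggs. Between the egg genotypes, the median log2 fold change was 0.19 for all tested entries of up to 900 nt, 0.21 for the next longer ones and -0.03 for those over 2500 nt. The Nduf entries in the same lower classes had medians of 0.72 and 0.86. Called higher in Psma7 cKO eggs (limma) were 11.3%, 12% and 2.12% of all tested entries in these classes, from short to long. In the lower classes, 33.3% and 28.6% of the Nduf entries were called higher. The part of length in the Nduf values was not tested.

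**Figure D3:**
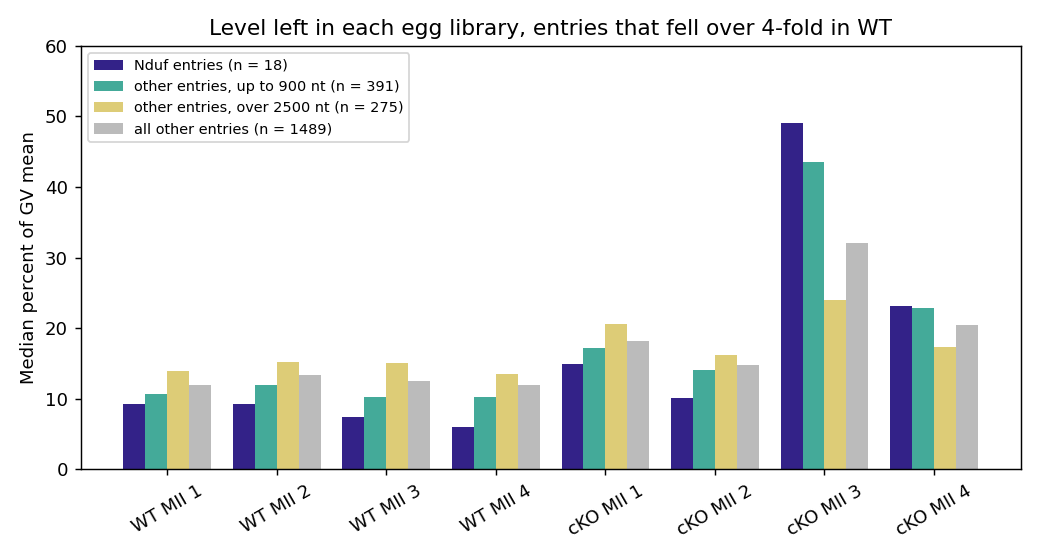
Median percent of the GV mean of the same genotype (vertical axis) left in each of the 8 egg libraries, for entries called more than 4-fold lower in WT eggs; bars stand for the 18 Nduf entries and for other entries by transcript length. The Nduf bar is 6.02% to 9.27% in WT eggs and reaches 49.1% in Psma7 cKO egg replicate 3.

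The subunits encoded in the mitochondrial genome took the opposite course. They stand in the table as ND1 to ND6 and ND4L, and summed to 826 ± 133 FPKM in WT GV oocytes, 663 ± 68.1 in Psma7 cKO GV oocytes, 4890 ± 191 in eggs of WT and 3441 ± 630 in those of Psma7 cKO. Egg libraries stood at 4979, 5090, 4646 and 4844 FPKM in WT and at 2777, 3590, 3153 and 4243 FPKM in Psma7 cKO, without overlap. In WT maturation all 5 tested entries were called higher, with a median log2 fold change of 2.79, and likewise in Psma7 cKO, with 2.48. Between the egg genotypes 2 of 5 were called lower, against 1.49% of all entries tested. They were ND1 at -0.57 (limma, adjusted p = 0.0315) and ND2 at -0.50 (adjusted p = 0.0471). Both calls were lost without WT egg replicate 1 or 3, where 0 of all entries were called lower, beside 141 with all libraries. In GV oocytes all 5 tested entries were also lower in Psma7 cKO, with a median of -0.31. Of these, 2 had an unadjusted p under 0.05 (limma) and 0 were called. The interaction was called for 0 of 5, with a median of -0.15. The ratio of nuclear-encoded to mitochondrially encoded complex I transcript thus moved in maturation, with shares of a library on both sides. How oligo-dT priming captures mitochondrial transcripts at each stage was not tested.

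Assembly factors without the Nduf prefix form a separate list. Of 12 entries on that list, 11 were tested in WT maturation and 11 were called lower, with a median of -1.41, and 11 of 11 were called lower in Psma7 cKO, with a median of -1.33. Of all entries tested, 52.4% were called lower in WT maturation and 51% in Psma7 cKO maturation. In eggs 3 of 9 entries of the list were called higher in Psma7 cKO, against 6.53% of all entries tested. The whole list summed to 102 ± 3.55 FPKM in WT eggs and to 145 ± 24.9 FPKM in Psma7 cKO eggs. The calls were Tmem261, at 1.37 (limma, adjusted p = 0.0307), Tmem126a, at 0.88 (adjusted p = 0.0499), and Tmem70, at 0.38 (adjusted p = 0.0440), all genes of membrane-arm assembly. Oocyte markers called in eggs were Zp3, which encodes a zona pellucida protein, at 1.20 (limma adjusted p = 0.0203), and the transcription factor gene Figla, at 1.57 (adjusted p = 0.0311).

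Other gene lists also held entries called higher in Psma7 cKO eggs. Genes of respiratory complexes II to V had 11 of 40 entries called higher and a median of 0.67, mitochondrial ribosomal proteins 15 of 70 and 0.67, and cytosolic ribosomal proteins 25 of 78 and 0.86. The Nduf share called higher, 30.2%, lay among the shares of these lists, 27.5%, 21.4% and 32.1%. For all entries tested it was 6.53%. In WT maturation the same lists had 30 of 42, 58 of 73 and 73 of 84 entries called lower, with medians of -1.57, -1.56 and -2.36. There, 52.4% of all entries tested were called lower. These lists were described by counts and medians with no test between them.

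Promoter and tail sequences were searched for shared letters. RefSeq promoters (GRCm38.p6, 300 bases around the start) were matched by symbol for 39 of the 45 names, with 41 promoters. Names without a match included Ndufa2, Ndufa4l2, Ndufaf6, Ndufb9 and Ndufs1. The letters GCGC and TGCGC with any base between them, the core bound by the transcription factor NRF1, a known activator of respiratory genes, were found on either strand in 10 of the 41 promoters, 24.4%. They were found in 4.6% of all 32851 promoters and in 10.4% of the 9900 promoters of genes with a mean of at least 1 FPKM. None of the 3 genes called higher in WT maturation was among them. Shown are Ndufb4 (chr16:37654319-37654618, minus strand), which fell steeply in WT maturation, Ndufaf5 (chr2:140170396-140170695, plus strand), higher in Psma7 cKO eggs, and Ndufaf4 (chr4:24897833-24898132, plus strand), which was flat. Capitals mark the letters searched or their reverse complement.
Ndufb4: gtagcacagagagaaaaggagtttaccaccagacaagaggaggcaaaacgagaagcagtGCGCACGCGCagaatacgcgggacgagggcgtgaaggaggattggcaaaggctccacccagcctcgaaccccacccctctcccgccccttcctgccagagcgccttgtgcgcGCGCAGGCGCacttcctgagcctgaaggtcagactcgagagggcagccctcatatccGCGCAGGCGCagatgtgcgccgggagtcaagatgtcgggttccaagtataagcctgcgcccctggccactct
Ndufaf5: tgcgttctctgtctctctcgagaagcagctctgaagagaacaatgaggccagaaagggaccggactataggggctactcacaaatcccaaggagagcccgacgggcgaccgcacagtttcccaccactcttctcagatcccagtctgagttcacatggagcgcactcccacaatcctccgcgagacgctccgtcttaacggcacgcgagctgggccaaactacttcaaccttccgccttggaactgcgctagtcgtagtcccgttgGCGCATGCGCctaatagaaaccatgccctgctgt
Ndufaf4: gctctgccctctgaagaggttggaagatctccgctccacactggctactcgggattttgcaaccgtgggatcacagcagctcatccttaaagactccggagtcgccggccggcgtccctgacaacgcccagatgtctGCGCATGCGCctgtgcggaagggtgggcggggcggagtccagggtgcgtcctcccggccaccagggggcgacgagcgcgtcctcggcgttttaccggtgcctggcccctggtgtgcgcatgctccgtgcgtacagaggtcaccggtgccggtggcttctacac

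The other search was for the cytoplasmic polyadenylation element, letters by which oocytes lengthen the tails of stored transcripts in maturation. TTTTAT or TTTTAAT was looked for in the last 100 bases of the longest protein-coding GENCODE M21 transcript. It was found in 6 of 44 Nduf genes tested in WT maturation, 13.6%, and in 19.9% of all 8783 genes. Over all genes it was in 29.6% of those called higher and 14.0% of those called lower. Among Nduf genes the share was 5 of 35 called lower, 14.3%, and 1 of 3 called higher. The gene called higher was Ndufab1, and those called lower were Ndufc2, Ndufs4, Ndufaf3, Ndufa2 and Ndufaf6. For comparison 30 bases are shown of Ndufab1 (chromosome 7) and of Ndufaf2 (chromosome 13), which rose and has no such letters there, with the element and the polyadenylation signal AATAAA in capitals.
Ndufab1: actTTTTATtaacAATAAAttcaatgaata
Ndufaf2: gatatggctgttttaacaAATAAAaggtta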

How the data were processed

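RNA was measured in 16 libraries, 4 from each of 4 groups: WT and Psma7 cKO oocytes at the GV and the MII stage. The FPKM values were used as deposited by the authors, whose processing notes name TopHat2 2.1.1, Cufflinks 2.2.1 and the mouse genome mm10; the gene annotation is not given in the sources used here. Samples were grouped by genotype and stage as labelled. Depth, estimated from steps between the smallest values, was 10.6 to 15.7 M fragments, and the table holds 0 ERCC spike-in entries.

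FPKM below 1 were set to 1 and log2 was taken. Every entry whose mean reached 1 FPKM among the libraries of a comparison was tested with limma 3.58.1 (R 4.3.3), with a trend in the moderation and a Benjamini-Hochberg threshold of 0.05. Comparisons were Psma7 cKO against WT at each stage, MII against GV in each genotype, and their interaction. Tables and figures were made with Python 3.11.15, numpy 2.4.6, pandas 2.3.3 and matplotlib 3.10.9. The procedure was tested on simulated data.

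Genes to name were fixed by a rule: core subunits, Ndufaf genes, members called between genotypes in GV oocytes or in the interaction, the 5 called members at either end of each other comparison, the 5 most abundant, those under 1 FPKM, and those with more than 1 entry. Not every gene picked by the rule is given in the text or drawn. Members and lists were chosen with earlier results of these data known. Alternatives tried were no filter, a lower floor of 0.1 FPKM, adding 1 FPKM instead of a floor, a filter of 5 FPKM, rescaling by the median ratio, moderation without a trend, a replicate block, a joint fit of all 16 libraries, entries summed by name, and each library left out. Positions and transcript lengths came from GENCODE M21 (GRCm38). No library was left out of the values given with n = 4.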

Additional observations from a re-analysis of the deposited data

Results flagged for a closer look

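Each group of 4 libraries was searched for a library far from the other 3, in the 179 groups of Nduf values where this could be done. It was found in 13. The rule is set to find it in about 1 group in 20 for independent groups of normally distributed values. These groups share the same 16 libraries, so the 13 are not read as an excess over chance. Of the 13, 4 were in Psma7 cKO GV replicate 4, 3 in Psma7 cKO egg replicate 3 and 2 in WT GV replicate 3.

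In WT GV replicate 3, Ndufaf4 stood high at 74.5 FPKM and Ndufaf5 at 8.72 FPKM. In Psma7 cKO GV replicate 4, Ndufb6 stood high at 39.2 FPKM, Ndufa11 at 11.2 FPKM, Ndufa1 at 4.23 FPKM and Ndufa13 at 3.94 FPKM. Both libraries had the highest subunit sum of their group. In Psma7 cKO egg replicate 3, Ndufb7 stood high at 25.4 FPKM, Ndufb10 at 11.9 FPKM and Ndufv3 at 8.56 FPKM. In WT egg replicate 4, Ndufb2 stood high at 7.60 FPKM. Low values were Ndufa5 at 20.4 FPKM in Psma7 cKO egg replicate 4, Ndufa1 at 5.38 FPKM in Psma7 cKO egg replicate 1 and Ndufv2 at 2.56 FPKM in WT egg replicate 3. The genes in this paragraph were picked by this search.

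Maturation differed between genotypes past the threshold for 2 members, by an interaction of 1.39 for Ndufb3 and 1.51 for Ndufb5 on the log2 scale. What sets these libraries and genes apart was not tested.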

How the results depend on the processing

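The count of Nduf entries called higher in Psma7 cKO eggs, 13, depended on settings. It was 20 with no filter on low values, 8 with moderation without a trend and 21 in a joint fit of all 16 libraries. With single egg libraries left out it ran from 0 to 20, with 0 without WT egg replicate 1, 3 or 4, 4 without WT replicate 2, 1 without Psma7 cKO replicate 1, 6 without Psma7 cKO replicate 3 and 20 without Psma7 cKO replicate 2. The median log2 fold change of the Nduf entries stayed between 0.57 and 0.83 over these alternatives. With no filter the moderation is less reliable, because most residual variances are then 0.

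In WT maturation, 3 entries were called higher, 5 after rescaling by the median ratio, and 2 to 4 with single libraries left out. Calls for a lower level ran from 30 to 36 over all alternatives. The interaction, called for 2 entries, was called for 1 with 1 FPKM added to every value, 0 with no filter and 1 with moderation without a trend. Single libraries left out gave 0 to 11 calls, with 11 without Psma7 cKO egg replicate 2, 1 without WT GV replicate 1 or Psma7 cKO egg replicate 3, and 0 without WT GV replicate 3 or 4, Psma7 cKO GV replicate 1, 2 or 3, or WT egg replicate 1, 3 or 4. In an alternative chosen after seeing the data, both GV libraries with the highest Nduf sum were left out, which gave 0 interaction calls by limma at a median of 0.76.

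With replicate number as a block, 0 entries were called higher in eggs by limma and 1 in the interaction, and Psma7 itself in eggs, at -1.83, was no longer called. The labels do not say whether the numbers pair the libraries. Correlations of same-numbered libraries ran from -0.496 to 0.285. With 4 libraries in a group, they cannot decide whether pools shared an animal or a day. At an unadjusted p under 0.05 the block gave 27 higher entries in eggs and 23 in the interaction, beside 25 and 22 without it. Why the calls were lost was not tested. Without single libraries the log2 fold change of Psma7 in eggs ran from -2.10 to -1.38, and its call was lost without WT replicate 1, 2, 3 or 4 or Psma7 cKO replicate 3.

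Between genotypes in GV oocytes, 0 entries were called by limma in any alternative, with medians of -0.13 to 0.08 and, with all libraries, 2 higher and 1 lower at an unadjusted p under 0.05.

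Limits. Values are shares of a library primed with oligo-dT, so RNA amount, tail length and the amount of all other RNA cannot be told apart. The meiotic stage of single Psma7 cKO eggs is not known, and whether pools came from separate animals is not stated. Fragments of pseudogene copies in short members were not separated. The cause of the higher Nduf levels in Psma7 cKO eggs was not tested.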
